A study of Mus musculus with 1 sample.

Results

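The Pi16 Pcolce2 fibroblasts are 1066 cells of the mouse pancreas, 18.8% (95% interval 17.8 to 19.9) of 5662 gated fibroblasts and 10.5% (9.93 to 11.1) of 10129 retained cells. They were selected on measured values. A retained cell was gated as a fibroblast when it had at least 10 unique molecular identifiers (UMIs, the tags that count single captured transcripts) of *Col1a1* and *Col3a1* together, none of the leukocyte gene *Ptprc* or of the mesothelial genes *Msln* and *Upk3b*, and at most 1 of the cell cycle genes *Mki67*, *Top2a*, *Cenpf* and *Birc5*. A gated cell was a member when *Pcolce2*, *Efhd1*, *Efemp1*, *Pi16*, *Opcml* and *Adamts16* gave at least 3 UMIs together, and at least 2 times the sum of each of the other rule sets. Those sets were *Rspo3*, *Adamtsl3*, *Cxcl14*, *Fgf10*, *Steap4* and *Ms4a4d*, and *Mfap4*, *Fmo2*, *Meox2*, *Hmcn2*, *Lsamp* and *Slit2*. The same rule applied to those sets picked 677 Rspo3 Cxcl14 fibroblasts and 1678 Mfap4 Meox2 fibroblasts, which are the comparison groups throughout, and left 2241 gated fibroblasts in no set.

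All cells came from 1 droplet library of *Scap* f/f pancreata, in which the gene for the sterol-sensing SREBP chaperone carries floxed alleles and the label names no Cre driver. Pancreata of 5 to 6 mice aged 2 weeks were pooled, with as many males as females in the pool. The matched *Scap* Δpanc library, in which *Pdx1*-Cre deletes *Scap* in the pancreatic epithelium, was not analysed here, so no genotypes are compared. The library held 11789 barcodes and 51540177 UMIs, with 500 to 174899 UMIs per barcode. With 1 library there is no replicate, so no test of a difference was possible. Levels are UMIs per 1000000 UMIs of a cell set (CPM) with exact 95% Poisson intervals, ratios of levels have exact conditional binomial intervals and shares have Clopper-Pearson intervals. All of them cover counting error only.

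Fibroblasts that express *Pi16* and *Dpp4* are known from many mouse organs, where they lie in the adventitia of large vessels and in fascia, the connective tissue sheets around organs. They are often described as a reservoir of fibroblast progenitors. Another widespread kind, marked by *Col15a1*, lies within the parenchyma and contributes to basement membrane. *Pi16* encodes a secreted peptidase inhibitor, and *Pcolce2* an enhancer of the enzyme that trims the C-terminal propeptide of fibrillar procollagens. *Efemp1* encodes fibulin-3, an extracellular matrix protein, *Opcml* a GPI-anchored cell adhesion molecule, *Adamts16* a secreted metalloproteinase and *Efhd1* a calcium-binding protein of mitochondria.

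On the mm10 build, with gene bounds from the GENCODE M21 annotation, *Pi16* is at chr17:29317680-29330593 and *Pcolce2* at chr9:95637601-95698096, both on the plus strand. *Efemp1* is at chr11:28853204-28926743, *Efhd1* at chr1:87264363-87310839 and *Opcml* at chr9:27790775-28925410 on the plus strand, and *Adamts16* is at chr13:70727802-70841811 on the minus strand.

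The members held 4166593 UMIs. Their median depth was 3495 UMIs and 1688 genes per cell, against 2655 UMIs in Rspo3 Cxcl14 and 2581 UMIs in Mfap4 Meox2 fibroblasts. They were thus the deeper cells, and detection was also counted after each cell had been thinned at random to 800 UMIs. The median share of mitochondrial UMIs per member was 1.72%. Among their genes, *Col3a1* took 2.55% of UMIs, followed by *Col1a1* and *Col1a2*, each with 1.04%, and by the imprinted transcript *H19* with 0.686%.

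The values that chose the members are given as a description only. The sum over the 6 genes had a median of 9 UMIs per member, quartiles of 6 and 15 and a maximum of 73. UMIs of at least 3 of the 6 genes were present in 860 members, and 261 members had no UMI of either other rule set. *Efemp1* was detected in 89.9% of members, at 978 CPM, and *Opcml* in 83.8%, at 968 CPM. *Pi16* was seen in 64.0% of members at 446 CPM, against 3.37% of the immune class, which should lack it. After thinning, these shares were 28.1% and 1.15%. *Pcolce2* was seen in 51.2%, *Efhd1* in 41.5% and *Adamts16* in 40.2% of members. The genes overlapped to different degrees. *Efemp1* was present in 90.03% to 92.5% and *Opcml* in 83.4% to 86.9% of the members with a UMI of any other rule gene. *Pcolce2* was present in 55.4% (51.6 to 59.2) of the members with a *Pi16* UMI, and *Pi16* in 69.2% (65.2 to 73.1) of those with a *Pcolce2* UMI. *Efemp1* was not particular to fibroblasts, as its level in the mesothelial class was 509 CPM.

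At the threshold, 71 members had exactly 3 UMIs and 118 gated cells were just outside with 2. A further 549 cells, 34.0% of the 1615 gated cells with a sum of at least 3, were left out because of their UMIs from the other sets. *Dpp4* was at 219 CPM in the members just inside, 147 CPM in the cells just outside and 446.5 CPM in the 508 members with a sum of at least 10. *Fn1* followed the same order at 3324, 1786 and 4073 CPM. *Col15a1* was at 334, 382 and 89.1 CPM. Of the 9 genes compared at the edge, the members just inside were nearer to the cells just outside than to the members far inside in 8, *Dpp4* and *Col15a1* among them, and *Fn1* was the exception.

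Because the rule used the 6 genes together, each was also measured with itself left out of the rule. The other 5 genes then chose the cells, and the gene's level in them does not enter that choice. The 6 genes had still been put into the rule together, with earlier results of these data known. The held-out ratios therefore describe genes picked together and test nothing. All 6 genes were at least 2-fold higher than in both comparison sets. Held out, *Pi16* was at 418 CPM in the cells so chosen, 11.2-fold its level of 37.3 CPM in Rspo3 Cxcl14 fibroblasts and 4.48-fold its 93.4 CPM in Mfap4 Meox2 fibroblasts. *Pcolce2* was at 261, 20.6 and 39.1 CPM in the same order, ratios of 12.7 (9.38 to 17.6) and 6.68 (5.75 to 7.79). The held-out ratios of *Adamts16* were 45.5 and 14.3, those of *Efhd1* 26.9 and 31.3, those of *Efemp1* 8.29 and 19.6 and those of *Opcml* 4.87 and 9.57. The smallest of the 12 ratios was that of *Pi16* to the Mfap4 Meox2 fibroblasts.

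Genes outside the rule separated the members in part. Principal components were computed over the gated fibroblasts from 2000 variable genes without any gene of the 3 rule sets or the gate, and the 20 nearest neighbours of each cell were counted. On average 73.8% of a member's neighbours were members, beside the members' share of 18.8% of all gated cells. In 814 members, 76.4%, they were the majority. Genes that vary with those of the rule stayed among the 2000, so part of this excess was set by the choice of members. Members were also deeper cells, and neighbours were not counted at equal depth. Members made up 4.35% of the neighbours of Rspo3 Cxcl14 fibroblasts, 2.50% of those of Mfap4 Meox2 fibroblasts and 12.1% of those of the cells in no set, of which 146 had a majority of members around them.

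**Figure D1:**
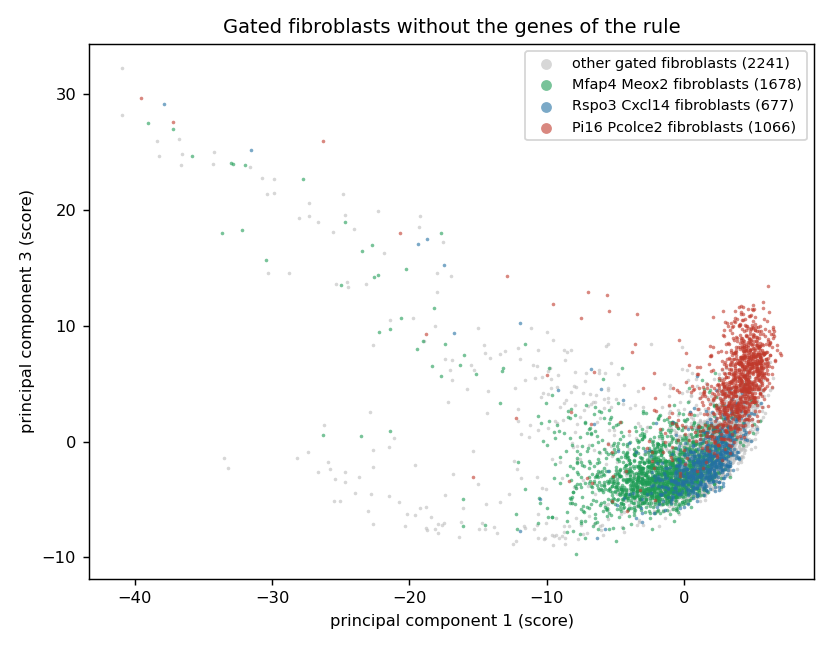
Each point is 1 of 5662 gated fibroblasts, placed by its scores on principal component 1 (x axis) and principal component 3 (y axis), both without units and computed without the genes of the rule, and coloured by set. The 1066 Pi16 Pcolce2 fibroblasts sit mostly at high scores of component 3, where their median is 5.28 against -1.83 in Rspo3 Cxcl14 and -2.82 in Mfap4 Meox2 fibroblasts, and shade into the other cells without a gap.

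To describe the members beyond the rule, a gene was counted as higher or lower when its level differed at least 2-fold, with 10 CPM added to each level, from both comparison sets. Of 3247 genes at 50 CPM or more in the members, 134 (4.13%) were higher. Of 3093 genes at 50 CPM or more in both comparison sets, 81 (2.62%) were lower. Because the sets were chosen on measured genes, genes that vary with the 6 of the rule had to differ, and these counts describe the groups without testing them. The 25 genes furthest above and the 12 furthest below both sets, the genes of the rule left out, are named here.

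The higher genes that encode secreted signals and receptors were led by *Edn1*, the precursor of the vasoconstrictor endothelin-1, at chr13:42301476-42307990. Its level was 126 CPM (116 to 137) in the members, 2.86 CPM (1.05 to 6.22) in Rspo3 Cxcl14 and 5.15 CPM (3.39 to 7.49) in Mfap4 Meox2 fibroblasts. The ratios were 44.2 (20.2 to 121) and 24.5 (16.6 to 37.6). An *Edn1* UMI was present in 25.6% of members and in under 1% of either comparison set, at 0.886% and 0.894%. At 800 UMIs per cell it was seen in 8.26% of members, in none of the 677 Rspo3 Cxcl14 fibroblasts and in 0.179% of Mfap4 Meox2 fibroblasts. The interval of the share of 0 reaches 0.543%, which concerns cells with a UMI at that depth, not cells that express the gene. *Tnfrsf11b*, which encodes osteoprotegerin, the decoy receptor of RANKL, was at 144 CPM, 25.2-fold and 8.69-fold the comparison levels. *Bmp7*, a bone morphogenetic protein, was at 57.1 CPM, with 1.43 and 1.72 CPM in the comparison sets. *Tek*, the angiopoietin receptor best known from endothelium, was at 250 CPM, 6.10-fold and 15.1-fold the comparison levels. The endothelial marker list stood at 53.5 CPM in the members, below the 94.3 and 113 CPM of the comparison sets.

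A pair of antagonists of Wnt ligands of the secreted frizzled-related family were in the same group of higher genes. *Sfrp2* was at 149 CPM in the members, 7.14 CPM in Rspo3 Cxcl14 and 13.9 CPM in Mfap4 Meox2 fibroblasts. *Sfrp4* was at 185, 10.96 and 28.6 CPM. *Dact2*, an intracellular regulator of Wnt and Nodal signals, was at 50.9 CPM and had no UMI in the Rspo3 Cxcl14 fibroblasts. Its level in the members was 35.6-fold the level that 3 UMIs over that set would give.

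Among the matrix genes, *Fn1*, the fibronectin gene at chr1:71585520-71653200 on the minus strand, was found in 99.0% of members. It was at 3852 CPM (3792 to 3912) in the members, 713 CPM (677 to 750) in Rspo3 Cxcl14 and 413 CPM (396 to 431) in Mfap4 Meox2 fibroblasts. At 800 UMIs per cell, 89.9% of members had a *Fn1* UMI, against 28.8% and 19.6% of the comparison sets and 7.73% of the immune class. *Ugdh*, the enzyme that makes the UDP-glucuronic acid used in hyaluronan and other glycosaminoglycans, was at 1627 CPM, 4.42-fold (4.10 to 4.76) and 6.98-fold (6.57 to 7.42) the comparison levels. *Cthrc1*, a secreted protein with a short collagen repeat, was at 335, 40.5 and 66.8 CPM. *Pamr1*, a secreted protein with a peptidase-like domain, was at 313, 54.3 and 42.0 CPM.

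Genes of the cell's interior or membrane were also named. *Anxa3*, a calcium-dependent phospholipid-binding annexin at chr5:96793339-96845966, was at 569 CPM (547 to 593) in the members, 8.02-fold and 9.92-fold the comparison levels. *Limch1*, a regulator of non-muscle myosin, was at 250, 17.1 and 25.6 CPM. *Gap43*, known from neuronal growth cones, was at 246, 31.9 and 10.3 CPM, while the Schwann marker list was at 42.0 CPM in the members and at 34.8 and 19.3 CPM in the comparison sets.

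Lipid and steroid enzymes were present too. *Akr1c18*, a hydroxysteroid dehydrogenase that inactivates progesterone, was at 55.2 CPM in the members and had no UMI in Rspo3 Cxcl14 fibroblasts. Its level in the members was 38.6-fold the level that 3 UMIs over that set would give. Only 3 UMIs of it were counted in Mfap4 Meox2 fibroblasts, a ratio of 96.5 with an interval from 32.6 to 471. *Ptgs1*, the constitutive cyclooxygenase of prostaglandin synthesis, was at 56.2 CPM, with 2.86 CPM in each comparison set. *Pla1a*, a phospholipase acting on phosphatidylserine, was at 89.0, 4.76 and 2.10 CPM. *Cmah*, which hydroxylates sialic acid, was at 177, 16.2 and 8.01 CPM. The other 7 of the 25 genes, *Arl4d*, *1700019D03Rik*, *Sbsn*, *Rras2*, *Tmem100*, *Gda* and *Rab32*, were between 51.1 and 336 CPM in the members.

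**Figure D2:**
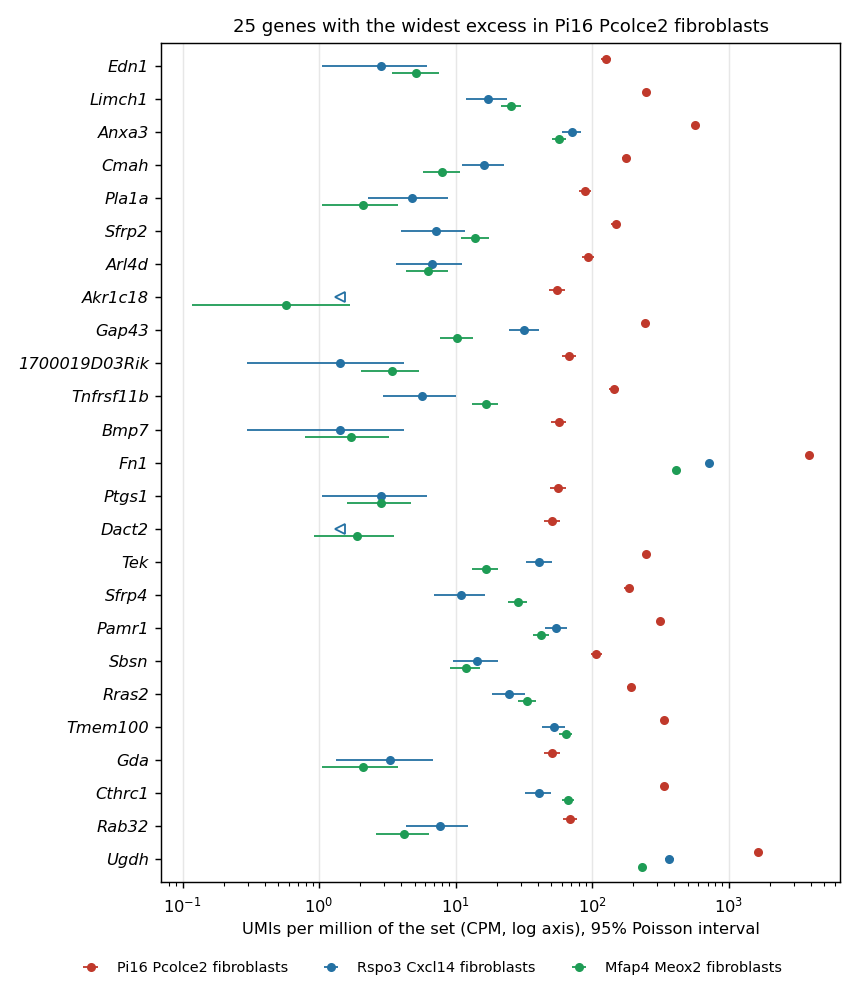
Levels in CPM on a log axis, with 95% Poisson intervals, of the 25 genes furthest above both comparison sets, in Pi16 Pcolce2 (red), Rspo3 Cxcl14 (blue) and Mfap4 Meox2 (green) fibroblasts, and open arrowheads at the level of 3 UMIs where a set had none. No interval of the members reaches that of a comparison set; *Fn1* lies at 3852 CPM in the members and at 713 and 413 CPM in the comparison sets.

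The 12 lower genes included *Col15a1*, a collagen of the basement membrane zone at chr4:47208161-47313167, which marks parenchymal fibroblasts elsewhere. It was at 123 CPM (113 to 134) in the members, 1115 CPM (1070 to 1161) in Rspo3 Cxcl14 and 886 CPM (860 to 911) in Mfap4 Meox2 fibroblasts. A *Col15a1* UMI was present in 25.5% of members, 87.4% of Rspo3 Cxcl14 and 79.1% of Mfap4 Meox2 fibroblasts, and at 800 UMIs per cell in 9.38%, 53.5% and 47.8%, so it was least often seen in the members, where *Fn1* was most often seen. *Adgrb3*, an adhesion G protein-coupled receptor at chr1:25067476-25829707 on the minus strand, was at 28.8 CPM in the members, with comparison levels 13.4-fold and 12.03-fold higher. *Tenm4*, a teneurin adhesion protein, was at 6.48 CPM against 146 and 114 CPM. *Serpine2*, a secreted inhibitor of thrombin and urokinase, was at 37.4 CPM against 435 and 322 CPM.

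*Mgp*, the matrix Gla protein that inhibits calcification, was at 92.6 CPM in the members, 560 CPM in Rspo3 Cxcl14 and 2070 CPM in Mfap4 Meox2 fibroblasts, the widest gap to the latter set among the 12 genes. *Prlr*, the prolactin receptor, was at 14.9, 106 and 188 CPM. *Igfbp3*, a carrier of insulin-like growth factors, was at 49.7, 293 and 303 CPM. The other lower genes were *Epha4*, *Abca8a*, *Ppp1r14a*, *Ifitm1* and *Kcnb2*, at 9.84 to 85.4 CPM in the members.

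**Figure D3:**
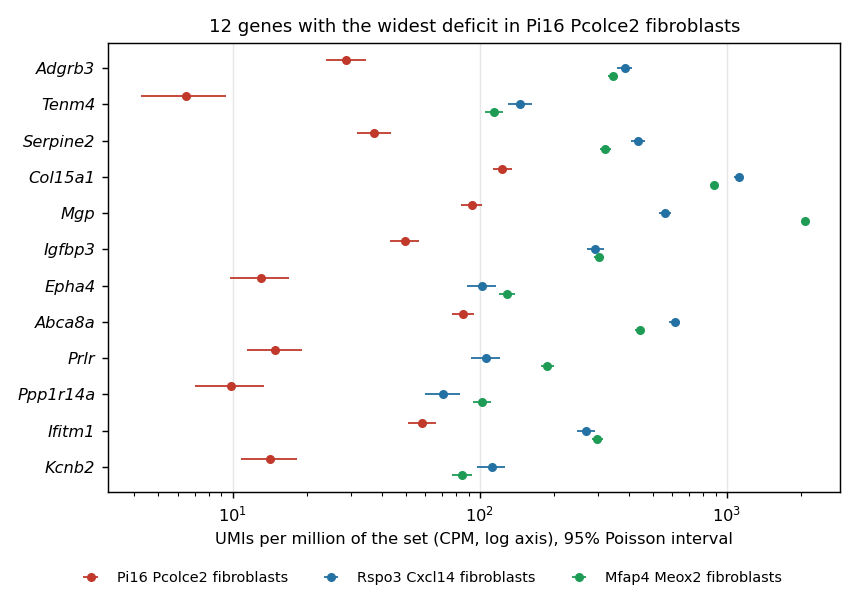
Levels in CPM on a log axis, with 95% Poisson intervals, of the 12 genes furthest below both comparison sets, in Pi16 Pcolce2 (red), Rspo3 Cxcl14 (blue) and Mfap4 Meox2 (green) fibroblasts. *Col15a1* lies at 123 CPM in the members and at 1115 and 886 CPM in the comparison sets, and *Mgp* at 92.6 CPM and at 560 and 2070 CPM.

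The label was set beside 22 genes that mark adventitial or universal *Pi16* fibroblasts in other organs, none of them in the rule. The list was drawn up with earlier results of these data known, and *Anxa3*, *Limch1* and *Bmp7* are also among the named higher genes. Its counts thus describe the members and do not test the label. Lists are counted over members of the list that averaged at least 20 CPM over the 3 sets. Over all 6550 such genes, 135 (2.06%) were higher and 116 (1.77%) lower than in both sets. These shares also stand beside the counts of the lists below, where few calls or none are near them. Without the 69 genes that reached the mean only through the Pi16 Pcolce2 fibroblasts, 106 of 6481 were higher. Of the 116 lower genes, 58 were under 20 CPM in the Pi16 Pcolce2 fibroblasts. Of the 22 adventitial genes 18 reached that mean, and 15 of the 18 were higher and none lower. *Bmp7* was under 20 CPM in both comparison sets, so it reached the mean only through the members, and without it 14 of 17 were higher. *Dpp4*, the dipeptidyl peptidase that defines these cells in mouse skin and fat, was at 387 CPM (368 to 406) in the members, 87.6 CPM in Rspo3 Cxcl14 and 26.5 CPM in Mfap4 Meox2 fibroblasts, ratios of 4.42 (3.79 to 5.17) and 14.6 (12.3 to 17.5). *Cd55*, a complement decay-accelerating factor, was at 646, 153 and 75.5 CPM. *Ly6c1* was at 428, 101 and 42.5 CPM and *Ly6a*, the stem cell antigen Sca-1, at 1069, 437 and 142 CPM. *Sema3c*, a secreted semaphorin, was at 1519, 596 and 252 CPM, and the transcription factor gene *Creb5* at 1092, 276 and 256 CPM.

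The 3 remaining genes of the 18 were *Cd34*, *Heg1* and *Clec3b*. *Cd34*, often used to sort such cells, was at 823 CPM in the members and at 678 and 372 CPM in the comparison sets, so it set them apart from the Rspo3 Cxcl14 fibroblasts by only 1.21-fold (1.14 to 1.29). *Wnt2*, a Wnt ligand, missed the mean, with 17.8 CPM in the members and 0.476 and 2.67 CPM in the others. The protein C receptor gene *Procr* was at 8.64 CPM, below its 18.1 and 14.3 CPM in the comparison sets. The summed level of the 22 genes was 14730 CPM in the members, 2.31-fold (2.27 to 2.35) that of Rspo3 Cxcl14 and 3.68-fold (3.62 to 3.74) that of Mfap4 Meox2 fibroblasts. The median log2 ratios of the tested genes were 1.497 and 2.438, beside -0.06 and -0.03 over all genes tested.

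Of 15 genes of parenchymal fibroblasts, 12 reached the mean, none was higher and 3 were lower. Besides *Col15a1*, these were *Smoc2*, which encodes a secreted calcium-binding matrix protein, at 44.4 CPM in the members, 337 and 185 CPM in the others, and the chemokine gene *Cxcl12*, at 109, 239 and 399 CPM. The summed level of that list was 2820 CPM in the members, 5451 CPM in Rspo3 Cxcl14 and 4155 CPM in Mfap4 Meox2 fibroblasts.

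Markers of other cell types were summed in the same way. The gate had already removed cells with a UMI of *Ptprc*, *Msln* or *Upk3b*, so low immune and mesothelial sums were partly set by it. The 9 immune markers summed to 58.8 CPM in the members, against 6343 CPM in the immune class, and 7 of them were under 10 CPM. The 12 mesothelial markers summed to 249 CPM, against 7258 CPM in the mesothelial class and 210 and 127 CPM in the comparison sets. *Wt1* was the most abundant of them, at 154 CPM, and 10 of the 12 were under 10 CPM. All 8 perineurial markers were under 10 CPM. The 11 mural markers summed to 157 CPM in the members, 190.5 CPM in Rspo3 Cxcl14 and 816 CPM in Mfap4 Meox2 fibroblasts. The 8 stellate markers summed to 313, 414 and 592 CPM, with *Gfap* at 0 in the members. RNA of other cells was similar between sets for digestive enzymes, at 15070, 14050 and 13920 CPM, but the globin and other red blood cell genes were at 5364 CPM in the members and at 3779 and 4257 CPM in the others. The part of that RNA in the named differences was not tested.

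Promoters were read for *Pi16*, *Pcolce2*, *Dpp4*, *Edn1*, *Limch1*, *Sfrp2* and *Ugdh*, 9 promoters of 7 genes. Those of *Dpp4* and *Edn1* are shown because they were the 2 with a match to the TEAD motif, so they were picked after the matches were seen, and that of *Pi16* as the gene the cells are named after. The sequences are 300 bases around the start site, 5′ to 3′ on the gene's strand, from RefSeq on GRCm38.p6, the assembly of mm10. Capitals mark the TEAD motif GGAATG on either strand, here CATTCC, the letters bound by the partners of the Hippo pathway coactivators. The stretch of *Pi16* is chr17:29318632-29318931 on the plus strand and holds no match. It lies inside the gene bounds given above, since RefSeq places this start site downstream of the GENCODE start. That of *Dpp4* is chr2:62412182-62412481 on the minus strand, with a match 118 bases before the start site. That of *Edn1* is chr13:42301226-42301525 on the plus strand, with a match 207 bases before it.
Pi16: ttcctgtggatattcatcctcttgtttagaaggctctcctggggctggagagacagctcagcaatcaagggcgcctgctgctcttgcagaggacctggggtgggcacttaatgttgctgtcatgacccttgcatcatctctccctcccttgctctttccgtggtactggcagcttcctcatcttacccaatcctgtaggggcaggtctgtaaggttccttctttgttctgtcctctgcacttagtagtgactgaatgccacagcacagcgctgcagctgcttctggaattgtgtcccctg
Dpp4: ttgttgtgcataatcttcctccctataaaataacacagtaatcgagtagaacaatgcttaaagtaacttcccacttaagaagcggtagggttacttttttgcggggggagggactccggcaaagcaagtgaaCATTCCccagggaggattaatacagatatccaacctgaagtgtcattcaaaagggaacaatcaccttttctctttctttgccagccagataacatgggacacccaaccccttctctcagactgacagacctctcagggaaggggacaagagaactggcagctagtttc
Edn1: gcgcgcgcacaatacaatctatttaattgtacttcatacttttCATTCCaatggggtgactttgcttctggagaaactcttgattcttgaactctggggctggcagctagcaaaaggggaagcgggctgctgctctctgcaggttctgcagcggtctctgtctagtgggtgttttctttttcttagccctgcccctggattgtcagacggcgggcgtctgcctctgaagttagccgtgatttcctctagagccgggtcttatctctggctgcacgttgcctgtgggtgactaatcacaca

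Of the 25 higher genes 15 had a RefSeq promoter, and the motif was in 5 of their 24 promoters (20.8%), beside 14.7% of all 32851 promoters of that length. Those 5 belong to 3 of the 15 genes, namely *Edn1*, *Arl4d* and *1700019D03Rik*, and 16.6% of all 27025 genes with a promoter had a match. The 12 lower genes had the motif in 2 of 13 promoters (15.4%), of 2 of the 10 matched genes. The AP-1 motif TGANTCA was in 4.17% against 7.81%, and the cyclic AMP response element TGACGTCA in 4.17% against 1.79%, each counted on both strands. These matches are a description of letters in a short window, with 1 to 5 promoters behind each of the shares in the higher genes.

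Matrix genes were then grouped by role. Of 20 elastic fibre genes 19 reached the mean, 4 were higher and 2 lower. The 4 encode parts of microfibrils, the fibrillin scaffolds of elastic fibres, or proteins that bind them. Other such genes of the list, *Fbn2*, *Mfap2*, *Ltbp3* and *Ltbp4*, were neither higher nor lower than in both sets. The summed level of the list was 1.93-fold that of Rspo3 Cxcl14 and 1.28-fold that of Mfap4 Meox2 fibroblasts. *Fbn1*, fibrillin-1, was at 3826 CPM (3767 to 3886) in the members, 3.38-fold and 4.14-fold the comparison levels. *Mfap5*, which binds fibrillin, was at 2808, 908 and 739 CPM. *Ltbp1*, which tethers latent TGF-β to microfibrils, was at 225, 59.1 and 85.8 CPM, and *Thsd4*, a microfibril-binding protein, at 209, 47.2 and 43.5 CPM. *Eln*, the elastin that fills the scaffold, did not follow them. It was at 537 CPM (515 to 560) in the members, above the 170 CPM of Rspo3 Cxcl14 fibroblasts and 5.71-fold below the 3067 CPM of Mfap4 Meox2 fibroblasts. *Lox*, the cross-linking oxidase, was at 108, 114 and 296 CPM. *Emilin1* and *Fbln1* were the 2 lower genes, at 35.0 and 129 CPM in the members.

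Of 18 collagen genes outside the gate 15 reached the mean, none was higher and 3 were lower. All 3 belong to basement membranes or their border, namely *Col15a1*, *Col4a1* at 393 CPM in the members against 1300 and 870 CPM, and *Col4a2* at 221 CPM against 700 and 515 CPM. *Col14a1*, a collagen on the surface of fibrils, was at 2138, 991 and 1396 CPM. In the list of 17 collagen processing genes, 14 reached the mean, none was higher and *Pcolce* was lower, at 390 CPM in the members against 844 and 814 CPM. Its relative *Pcolce2*, a gene of the rule, was ordered the other way.

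Of 18 proteoglycan and hyaluronan genes 13 reached the mean, 4 were higher and none lower. Besides *Ugdh*, these were *Has1* and *Has2*, hyaluronan synthases, at 187 and 86.6 CPM in the members, and *Aspn*, a small leucine-rich proteoglycan, at 599 CPM. *Has1* was 3.77-fold (3.07 to 4.68) and 3.56-fold (3.10 to 4.11) the comparison levels. The precursor enzyme and both synthases were thus higher together. *Bgn*, biglycan, was at 207 CPM in the members, 306 CPM in Rspo3 Cxcl14 and 1101 CPM in Mfap4 Meox2 fibroblasts.

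**Figure D4:**
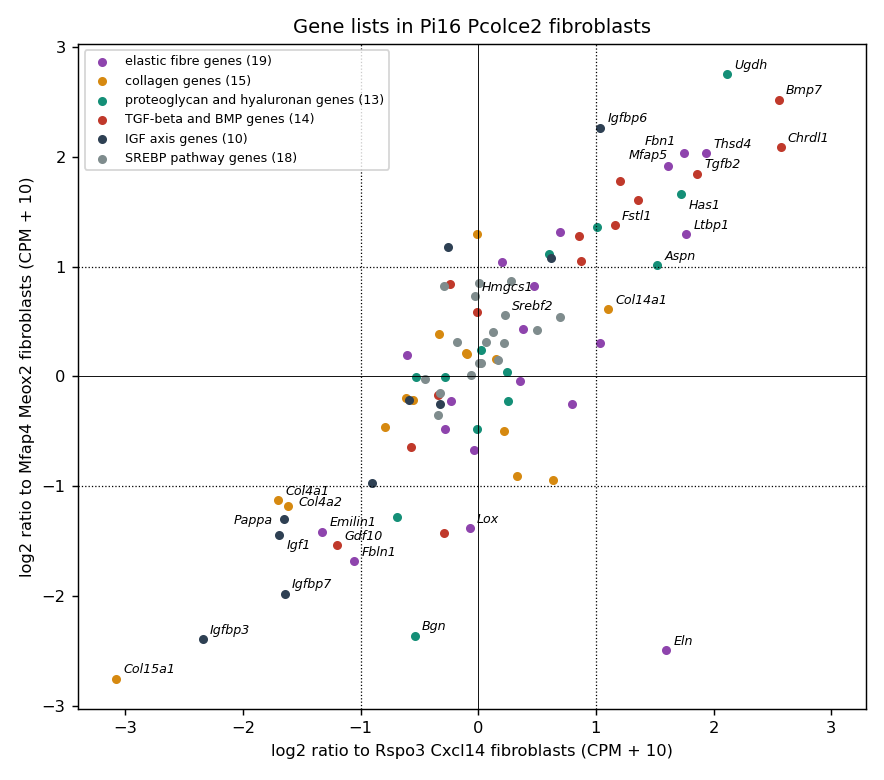
Each point is 1 gene of 6 lists, placed by the log2 ratio of its level in Pi16 Pcolce2 fibroblasts to that in Rspo3 Cxcl14 (x axis) and in Mfap4 Meox2 fibroblasts (y axis), with 10 CPM added to each level. Dotted lines mark 2-fold, numbers in the legend count genes that averaged at least 20 CPM, *Ugdh*, *Bmp7* and *Chrdl1* lie at the upper right, *Col15a1* at the lower left and *Eln* at the lower right.

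Among secreted signals, 14 of 25 TGF-β and BMP genes reached the mean, 6 were higher and 1 lower. *Bmp7* and *Chrdl1* reached it only through the members, and without them 4 of 12 were higher. The higher ligands were *Tgfb2*, at 199 CPM in the members and 47.6 and 48.1 CPM in the others, *Bmp6*, at 86.4, 27.6 and 21.7 CPM, and *Bmp7*. The other 3 encode extracellular binders of these ligands or their relatives. *Chrdl1*, a BMP antagonist, was at 72.0, 3.81 and 9.35 CPM, *Fst*, follistatin, at 86.4, 31.9 and 18.1 CPM, and *Fstl1* at 4986, 2227 and 1913 CPM. *Gdf10*, another ligand of the superfamily, was lower at 125, 299 and 381 CPM. Apart from *Bmp7* and *Chrdl1*, the higher genes were thus 2 ligands, *Tgfb2* and *Bmp6*, and 2 binders, *Fst* and *Fstl1*.

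Of 14 genes of the insulin-like growth factor axis 10 reached the mean, 1 was higher and 4 lower. *Igf1* was at 170 CPM (158 to 183) in the members, with comparison levels 3.37-fold and 2.82-fold higher. The binding protein genes *Igfbp3* and *Igfbp7* and *Pappa*, a protease that releases the growth factor from its carriers, were lower as well, with *Igfbp7* at 339 CPM against 1082 and 1363 CPM. *Igfbp6*, which prefers Igf2, was higher at 581 CPM against 278 and 113 CPM. *Igf2* itself was at 2196 CPM in the members, 2623 CPM in Rspo3 Cxcl14 and 965 CPM in Mfap4 Meox2 fibroblasts.

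Of 21 Wnt genes 7 reached the mean. *Sfrp2* and *Sfrp4* were higher, and *Sfrp1* was lower at 42.5 CPM in the members against 106 and 231 CPM, so members of 1 antagonist family differed in direction. *Sfrp2* reached the mean only through the members. *Wnt10b*, a ligand that restrains adipogenesis, missed the mean at 47.5 CPM in the members, 1.91 CPM in Rspo3 Cxcl14 and 1.33 CPM in Mfap4 Meox2 fibroblasts. Of 22 complement and cytokine genes 15 reached the mean, *Cd55* and the scavenging chemokine receptor gene *Ackr3* were higher and *Cxcl12* lower. *Ackr3* removes the ligand that *Cxcl12* encodes, and was at 336 CPM in the members against 110 and 88.5 CPM. *Il6* was at 132, 114 and 115 CPM.

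The study concerns loss of SREBP activation in the pancreas, so genes of that pathway were listed. Of 22 SREBP pathway genes 18 reached the mean and none was 2-fold higher or lower than in both sets, with median log2 ratios of 0.02 and 0.32. Over all 6550 genes that reached it, 2.06% were higher and 1.77% lower, so a count of 0 among 18 is near those shares. Their summed level was 1005 CPM in the members, 988 CPM in Rspo3 Cxcl14 and 807 CPM in Mfap4 Meox2 fibroblasts. *Scap* was at 27.8 CPM (23.0 to 33.4), 1.02-fold (0.741 to 1.43) and 1.12-fold (0.867 to 1.45) the comparison levels. *Srebf2*, the regulator of cholesterol synthesis genes, was at 64.6 CPM, 1.20-fold (0.959 to 1.51) and 1.59-fold (1.32 to 1.91).

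Of 18 adipogenic genes 13 reached the mean, none was higher and *Icam1*, a marker of committed preadipocytes, was lower at 5.52 CPM against 32.9 and 28.2 CPM, reaching the mean only through the comparison sets. *Dlk1*, an inhibitor of adipocyte differentiation, was at 394 CPM in the members, 2014 CPM in Rspo3 Cxcl14 and 587 CPM in Mfap4 Meox2 fibroblasts. *Pparg*, the master regulator of that fate, was at 3.60 CPM. Of 7 genes the study followed along fibroblast pseudotime, with the gate gene *Col1a1* left out, *Fn1* and *Cd44*, the hyaluronan receptor gene, were higher, *Cd44* at 384 CPM against 157 and 145 CPM. The study listed *Cd44* and *Pdgfra* with early and *Fn1* and *Acta2* with late pseudotime, so the higher genes come from opposite ends. *Acta2*, smooth muscle actin, was at 27.1 CPM in the members, 17.1 CPM in Rspo3 Cxcl14 and 245 CPM in Mfap4 Meox2 fibroblasts, and *Pdgfra* was at 306, 551 and 367 CPM.

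Of 30 fibroblast transcription factor genes 18 reached the mean, and *Creb5* and *Twist1* were higher, *Twist1* at 41.8 CPM against 8.10 and 12.6 CPM, so that it reached the mean only through the members. The 17 dissociation response genes, which rise when tissue is digested, summed to 14870 CPM in the members, 0.690 of the level in Rspo3 Cxcl14 and 0.797 of that in Mfap4 Meox2 fibroblasts, and none of the 15 that reached the mean was higher or lower than in both. The 15 cell cycle genes summed to 323, 480 and 441 CPM. The gate had already removed cells with more than 1 UMI of 4 other cell cycle genes.

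Within the members, cells were ordered by the UMIs of the 6 rule genes per 10000 UMIs and split into a low, a middle and a high group of 356, 355 and 355 cells, whose median depths were 3305, 3522 and 3540 UMIs. The named genes had been chosen for their distance from cells with few of those UMIs, so their steps describe the choice in part and test nothing. From the low to the high group, *Dpp4* was at 269, 368 and 516 CPM, *Cd55* at 430, 648 and 846 CPM and *Fbn1* at 3025, 3836 and 4563 CPM. *Col15a1* ran the other way, at 213, 110.5 and 51.7 CPM, as did *Igf1* at 238, 179 and 97.9 CPM and the fatty acid binding protein gene *Fabp4* at 66.7, 36.4 and 17.5 CPM. Of the 25 higher genes 24 stepped up in both steps, with *Sfrp4* the exception at 156, 205 and 193 CPM, beside 29.1% of the 3247 genes at 50 CPM or more in the members. Of the 12 lower genes 8 stepped down in both, beside 23.7% of the 3093 genes at 50 CPM or more in both comparison sets. The intervals of the low and the high group were apart in the same 24 higher genes and in 5 of the 8 lower ones, beside 342 of the 3247 and 219 of the 3093 genes.

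*Ly6a*, at 999, 1110 and 1095 CPM, and *Igf2*, at 2229, 2188 and 2172 CPM, moved little by comparison. Scrublet, which scores how like simulated mixtures a cell is, marked 8.43%, 3.38% and 0.282% of the 3 groups as doublets, so likely mixtures also moved with the order. Their part in it was not tested. Over all members Scrublet marked 43 cells (4.03%), beside 2.66% of Rspo3 Cxcl14 and 3.81% of Mfap4 Meox2 fibroblasts.

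**Figure D5:**
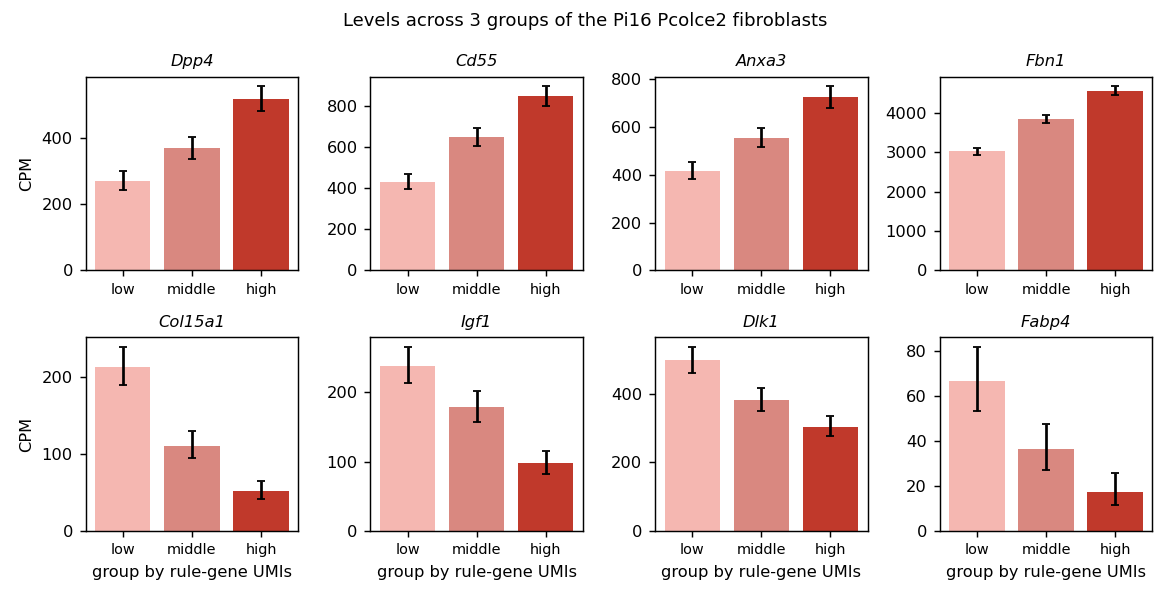
Levels in CPM (bars from 0, with 95% Poisson intervals) of 8 genes in the low, middle and high group of the Pi16 Pcolce2 fibroblasts, ordered by the share of their UMIs from the 6 genes of the rule. *Dpp4*, *Cd55*, *Anxa3* and *Fbn1* step up, and *Col15a1*, *Igf1*, *Dlk1* and *Fabp4* step down.

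Members were also split by *Pi16*, and those without it had to reach the rule through its other 5 genes, so likeness between the groups is partly set by the rule. The 682 with a *Pi16* UMI had a median of 3800.5 UMIs and the 384 without had 3076 UMIs, so depth differed too. *Dpp4* was at 410 CPM in the former and 339 CPM in the latter, *Anxa3* at 623 and 456 CPM, *Cd55* at 707 and 515 CPM, *Fn1* at 3917 and 3713 CPM and *Fbn1* at 4113 and 3215 CPM, with intervals apart for each of the 5 genes. *Ly6c1*, at 430 and 426 CPM, and *Col15a1*, at 116 and 137 CPM, had intervals that overlapped. In both, *Dpp4* was above and *Col15a1* below the level of either comparison set.

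The pool held both sexes, so cells were split by whether they had UMIs of *Xist* or of 4 Y-linked genes but not of both. Of the members 362 had only *Xist* and 279 only Y-linked UMIs, a female share of 56.5% (52.5 to 60.4). It was 55.5% (50.6 to 60.4) in Rspo3 Cxcl14 and 66.9% (64.0 to 69.7) in Mfap4 Meox2 fibroblasts. At 800 UMIs per cell these shares were 73.4% (68.2 to 78.2), 69.7% (63.2 to 75.7) and 78.2% (74.9 to 81.2), with intervals that overlap. The shares thus moved with depth, and they cover only the cells with such UMIs. All 25 higher and all 12 lower genes were at least 2-fold apart from both comparison sets in female and in male cells alone. Which animal a cell came from was not given, so the spread between mice could not be measured.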

How the data were processed

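The members and all gene lists were chosen with earlier results of these data known. The authors aligned the reads to mm10 with Cell Ranger 7.1.0 and deposited UMI counts, whole numbers per gene and barcode for called cells. No ambient RNA removal showed in these counts, and none was run. Overlapping and antisense genes may share reads. From 11789 barcodes, cells were retained above 800 and below 10000 UMIs if mitochondrial genes gave under 15%. At 1 library without replicates, no model was fitted, and levels were summed counts. The 25 higher genes were the highest by the smaller of their 2 ratios, with at least 50 CPM in the members. The 12 lower genes were the lowest by the larger of these ratios, with at least 50 CPM in both comparison sets. Comparison classes such as immune cells were taken from marker sums. Doublets were scored with Scrublet in scanpy 1.11.5 (expected rate 0.08) and kept. Neighbours came from 2000 variable genes, 30 principal components and scikit-learn 1.9.0. Interval and thinning functions (numpy 2.4.6, scipy 1.17.1) were tested on simulated data. Alternatives covered depth, mitochondrial and gate limits, the rule, doublets, sex, ambient subtraction, thinning and the pseudocount.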

Additional observations from a re-analysis of the deposited data

Results flagged for a closer look

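Signal outside the analysed cells was seen above the upper limit of 10000 UMIs, which the report's values leave out. Of 832 barcodes at or above it, 279 passed the fibroblast gate and 57 met the rule for Pi16 Pcolce2 fibroblasts. That is 20.4% (15.9 to 25.6) of them, beside 18.8% (17.8 to 19.9) of the gated fibroblasts below the limit. Their median depth was 13020 UMIs, and digestive enzymes took 6.30% of their UMIs, against 1.51% in the members. *Dpp4* was at 367.5 CPM, *Fn1* at 2936 CPM, *Fbn1* at 3323 CPM and *Col15a1* at 75.5 CPM in them. An alternative setting, with a limit of 100000 UMIs, takes these barcodes in. The part of doublets in these barcodes was not tested.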

How the results depend on the processing

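No paired analysis was possible because 1 library was analysed. All 37 named genes stayed at least 2-fold apart from both comparison sets under each of the 13 settings computed for them, 481 values in all, and the 6 held-out genes of the rule did so under each setting computed for them. The members' share of gated fibroblasts, 18.8%, was 22.1% at a lower limit of 1500 UMIs, 15.8% with at least 5 UMIs of the rule's genes, 14.5% with at least 4 times the other sums, 19.98% with at least 20 collagen UMIs, and 21.95% in male and 17.2% in female cells. The count of higher genes ranged from 124 to 162. The count of lower genes, 81, was 123 with a minimum of 20 CPM, which tests more genes, and 73 to 101 otherwise. The adventitial ratio to Rspo3 Cxcl14 fibroblasts, 2.31, was 2.41 with at least 5 UMIs, 2.38 with at least 4 times the other sums, 2.36 after thinning, 2.43 in female cells and 2.43 with the profile of all barcodes subtracted. The elastic fibre ratio to Mfap4 Meox2 fibroblasts, 1.28, was 1.30 with an upper limit of 100000 UMIs, 1.26 with at least 5 UMIs, 1.32 with at least 4 times the other sums, 1.53 in male and 1.10 in female cells, 1.30 with the profile subtracted and 1.34 as a mean over cells. The neighbour share, 73.8%, was 67.3% with at least 4 times the other sums and 77.7% in male cells. The cause of these shifts was not tested.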

Other observations

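In the immune class, 891 cells had only *Xist* and 45 only Y-linked UMIs, a female share of 95.2% (93.6 to 96.5), beside 56.5% in the Pi16 Pcolce2 fibroblasts of the same pool. After thinning to 800 UMIs the shares were 97.3% and 73.4%. *Cxcl13*, a chemokine gene that attracts B cells, was at 9.60 CPM in the members, 224 CPM in Rspo3 Cxcl14 and 20.03 CPM in Mfap4 Meox2 fibroblasts.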
